A study of Drosophila melanogaster with 8 samples.

Results

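The Skp family of Drosophila melanogaster comprises the adaptor proteins SkpA to SkpF, which are the fly relatives of Skp1. The family was described here from RNA sequencing of ovaries enriched for cells that resemble germline stem cells (GSC-like cells). Its genes were taken by symbol from the authors' deposited comparison table, where 5 of the 6 were found among 11397 genes (SkpA, SkpB, SkpC, SkpD and SkpE). SkpF is not listed in that table and was found in the abundance table of 14094 genes through its FlyBase identifier. The family was chosen by its members' control and overexpression values in the comparison below, with those results known. Its members' differences between the groups are therefore given as a description, with no test.

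The samples were 4 control libraries and 4 libraries with overexpression of Stonewall (Stwl), a chromatin protein that germline stem cells need to be maintained. Females were 4 to 5 days old, and each sample held about 35 dissected ovaries. The labels give the genotypes only as control and Stwl overexpression, and name the treated libraries StwlEY. How the GSC-like cells were enriched, the driver of Stwl and whether the groups share a genetic background are not stated by the labels, so strain and Stwl cannot be told apart. The labels do not say that replicates came from separate crosses, so errors and p-values cover the spread among these libraries only. The gene stwl itself had means of 23.5 ± 1.31 TPM (control) and 57.9 ± 9.65 TPM (overexpression) (SD, n = 4 per group), and the groups did not overlap. TPM (transcript abundance) is scaled for transcript length and to the same sum in every library, so levels can be set beside each other between genes, but the sequencing depth is unknown.

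Skp proteins work inside SCF ubiquitin ligases, which mark proteins for destruction by the proteasome. In these ligases a Skp protein joins an F-box protein, which picks the substrate, to the scaffold Cul1, which holds the RING protein Roc1a and through it the ubiquitin-conjugating enzyme. SkpA is the family member through which most SCF functions have been studied in the fly, among them control of chromosome replication and centrosome number, and the female germline needs it for the synaptonemal complex, the structure that pairs chromosomes in meiosis.

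The family fell into a cluster on the X chromosome and 3 separate loci, in the coordinates of the Ensembl annotation of BDGP 6. SkpA (FBgn0025637) lies on X at 656114 to 657899 on the plus strand, has 9 annotated transcripts and encodes 162 residues. SkpD (FBgn0026174, X, 19812729 to 19813384, plus strand), SkpC (FBgn0026175, X, 19816072 to 19816700, plus strand) and SkpE (FBgn0031074, X, 19823368 to 19824080, minus strand) follow each other with no other gene annotated between them. The gaps in this cluster are 2687 bases between SkpD and SkpC and 6667 bases between SkpC and SkpE. SkpB (FBgn0026176) lies on 2R at 12139295 to 12140229 on the minus strand, and its 3' end overlaps CG18343 of the opposite strand by 30 bases, in which reads of the genes cannot be told apart without strand. SkpF (FBgn0034863, 2R, 23458065 to 23458759, minus strand) lies within the span of CG43795, which is on the opposite strand. The coding sequence of each of the 6 genes sits in 1 exon, and SkpC, SkpD, SkpE and SkpF have no intron at all. The annotated proteins are alike in length, with 158 residues for SkpC and SkpD, 161 for SkpB, 167 for SkpE and 171 for SkpF. Reads that fit several of these related genes cannot be followed in the deposited values, so the division of reads among SkpC, SkpD and SkpE could not be checked.

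Transcripts of SkpA made up most of the family in every library, with 524 to 577 TPM in controls and 447 to 544 TPM with overexpression. SkpC, SkpE and SkpB followed in that order in both groups. In controls their ranges were 42.6 to 53.9, 16.5 to 22.3 and 1.95 to 4.67 TPM, and no range overlapped that of its neighbour in the order. With overexpression the order was the same, but SkpC and SkpE came close, with SkpC at 67.9 to 82.9 TPM and SkpE at 48.8 to 66.2 TPM. SkpD reached at most 0.344 TPM in any library, and SkpF was listed at 0 in all 8. Among all 14094 genes ordered by mean abundance in controls, SkpA was at place 192, SkpC at 2671, SkpE at 5471 and SkpB at 7766.

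SkpA, the main adaptor, was at 529, 524, 577 and 574 TPM in controls 1 to 4, and at 447, 502, 524 and 544 TPM in overexpressing libraries 1 to 4. The groups overlapped, since overexpressing libraries 3 and 4 lay within or at the lower edge of the control range, and library 1 of that group was the lowest of all. The means were 551 ± 28.1 and 504 ± 41.8 TPM (SD, n = 4 per group), a log2 fold change of -0.13 ± 0.066 (SE) with a 95% interval of -0.28 to 0.02. Fold changes here are differences of log2(TPM + 1), overexpression minus control, and understate the change of low genes. Without overexpressing library 1 the log2 fold change of SkpA was -0.07. The authors' deposited table gives SkpA -0.16 ± 0.037 (SE).

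SkpC, the middle gene of the X cluster, was at 51.2, 53.9, 49.7 and 42.6 TPM in controls 1 to 4, and at 72.9, 81.9, 82.9 and 67.9 TPM in overexpressing libraries 1 to 4. Every overexpression library lay above every control. The means of 49.3 ± 4.82 and 76.4 ± 7.21 TPM (SD, n = 4 per group) gave a log2 fold change of 0.62 ± 0.091 (SE) with a 95% interval of 0.42 to 0.83. The authors' deposited table gives SkpC 0.60 ± 0.131 (SE).

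SkpE, at the other end of the cluster and on the opposite strand, differed most between the groups. It was at 16.5, 22.3, 22.0 and 16.9 TPM in controls 1 to 4, and at 56.6, 66.2, 57.6 and 48.8 TPM in overexpressing libraries 1 to 4. The lowest overexpression library was thus well above the highest control. The means were 19.4 ± 3.16 and 57.3 ± 7.12 TPM (SD, n = 4 per group), a ratio of 2.95, and the log2 fold change was 1.52 ± 0.126 (SE) with a 95% interval of 1.24 to 1.80. The authors' deposited table gives SkpE 1.54 ± 0.171 (SE).

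SkpB, the member on 2R, was at 3.67, 1.95, 3.08 and 4.67 TPM in controls 1 to 4, and at 5.87, 6.05, 5.69 and 6.84 TPM in overexpressing libraries 1 to 4. The groups did not overlap, but the controls were spread widely for this low gene. The means were 3.34 ± 1.14 and 6.11 ± 0.508 TPM (SD, n = 4 per group), and the log2 fold change was 0.75 ± 0.186 (SE) with a 95% interval of 0.33 to 1.17. It was 0.91 with a pseudocount of 0.1 TPM in place of 1, 0.58 without control replicate 2 and 0.85 in the authors' deposited table, with a standard error of 0.251.

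SkpD, the first gene of the cluster, was listed at 0, 0, 0.286 and 0.105 TPM in controls 1 to 4, and at 0.183, 0.166, 0.293 and 0.344 TPM in overexpressing libraries 1 to 4. The groups overlapped, and control 3 was level with overexpressing library 3. Its mean of 0.172 TPM over the 8 libraries was below the minimum of 1 TPM set for the fit. The authors' deposited table gives SkpD a log2 fold change of 1.31 ± 1.32 (SE) and a mean signal (baseMean) of 1.76, against 9951 for SkpA, 612 for SkpC, 458 for SkpE and 77.8 for SkpB. SkpD was thus barely measured, although it lies next to SkpC.

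**Figure D1:**
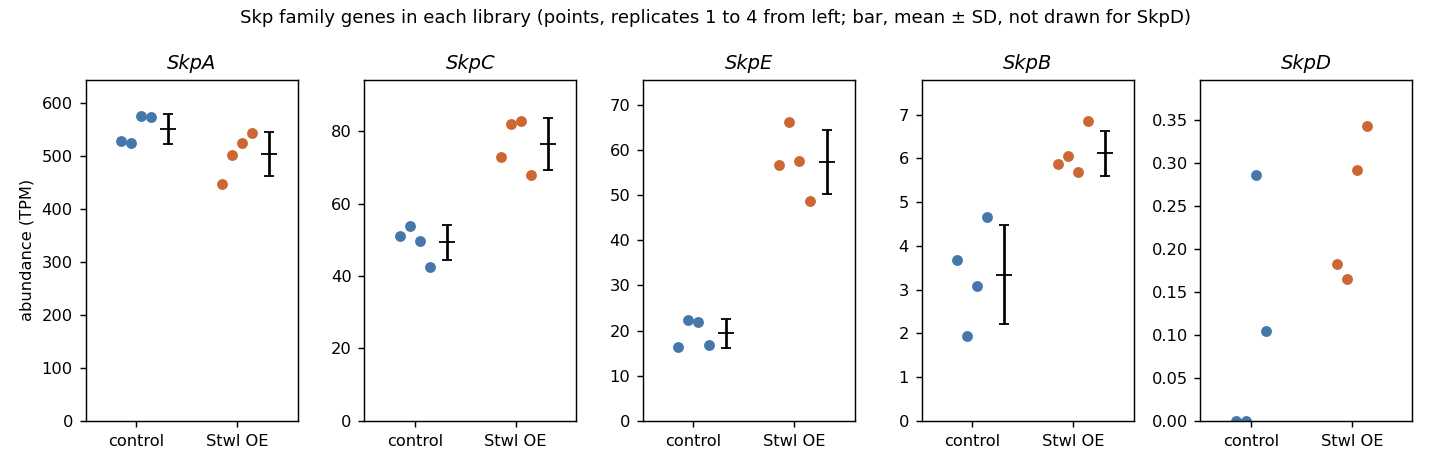
Abundance in TPM of SkpA, SkpC, SkpE, SkpB and SkpD (panels, each with its own linear axis from 0) in 4 control and 4 Stwl overexpression libraries; points are libraries, replicates 1 to 4 from left, and bars give the mean ± SD. The groups do not overlap for SkpC, SkpE and SkpB, and overlap for SkpA and SkpD.

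Of the 6 genes, 4 passed the minimum mean of 1 TPM (SkpA, SkpB, SkpC and SkpE). In the limma fit over all 8898 genes with such a mean, 552 genes (6.2%) were higher at an adjusted p under 0.05 and 194 (2.18%) lower, and SkpB, SkpC and SkpE were among the higher ones. Since the family was chosen on these values, this places its members in the whole table and is no test of them. The groups did not overlap for the same 3 genes, and for 16.0% of all tested genes, or 10.3% counting those higher with overexpression. SkpB was no longer among the higher genes in limma without the minimum abundance and without control replicate 1, 2 or 3 or overexpressing library 2, 3 or 4. With a minimum mean of 5 TPM it was not fitted. SkpA was among the lower genes with median-of-ratios scaling, and in the authors' deposited table its adjusted p is 0.000195, with no mark. The authors' deposited table marks SkpB, SkpC and SkpE as Up, a mark that 3.46% of its genes carry.

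The summed abundance of the family differed little between the groups, while its makeup did. The sum was 600, 602, 652 and 638 TPM in controls 1 to 4, and 583, 656, 671 and 668 TPM in overexpressing libraries 1 to 4, so that the groups overlapped. SkpA supplied 87.0% to 89.9% of the sum in controls and 76.5% to 81.4% with overexpression. The other genes together came to 72.2 ± 5.97 TPM (control) and 140 ± 13.2 TPM (overexpression) (SD, n = 4 per group). The share of SkpC was 7.94% ± 1.01 and 11.9% ± 1.14, that of SkpE 3.12% ± 0.506 and 8.93% ± 1.25, and that of SkpB 0.535% ± 0.176 and 0.951% ± 0.0814 (SD, n = 4 per group). These are shares of TPM, which say nothing of protein.

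SkpC and SkpE, neighbours in the cluster, did not differ between the groups to the same degree. The ratio of SkpC to SkpE was 3.11, 2.42, 2.26 and 2.53 in controls 1 to 4, and 1.29, 1.24, 1.44 and 1.39 in overexpressing libraries 1 to 4. Every overexpression library had a lower ratio than every control.

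**Figure D2:**
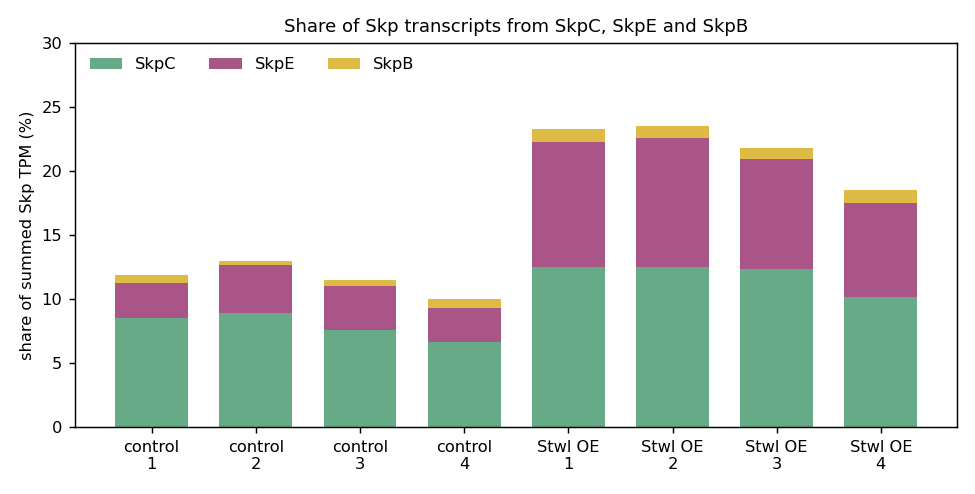
Share of the summed TPM of the Skp family taken by SkpC, SkpE and SkpB (stacked bars, %, axis from 0) in each of the 8 libraries, with nearly all the rest from SkpA. The stacked share is 10.1% to 13.0% in controls and 18.5% to 23.5% with Stwl overexpression.

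The genes around the members were then compared. On the right of the cluster, pico, which encodes a cytoskeletal adaptor, had means of 34.3 ± 3.57 TPM (control) and 29.5 ± 4.12 TPM (overexpression) (SD, n = 4 per group) and did not pass the test (limma adjusted p 0.321 at a log2 fold change of -0.21). In the authors' deposited table pico has a log2 fold change of -0.25 and an adjusted p of 0.00688. On the left, the nearest annotated gene, lncRNA:CR44885, has no value among the deposited abundances and could not be compared. Within 100 kb of the cluster 29 other genes are annotated, and 16 of them were tested. Over all tested genes 6.2% were higher in limma and 2.18% lower. Of the 16, none was higher and 1 fell, zld, which encodes the pioneer transcription factor Zelda. It went from 6.73 ± 0.482 to 4.55 ± 0.662 TPM (SD, n = 4 per group; limma adjusted p 0.0287, log2 fold change -0.48). The window and zld were chosen after values had been seen.

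Beside SkpA, 80 bases away, Hmt4-20, a histone H4 methyltransferase gene, was at 52.5 ± 5.12 and 52.2 ± 9.44 TPM (SD, n = 4 per group, adjusted p 0.960, limma). On the other side of SkpA, 22446 bases away, the pseudogene CR46419 was listed at 0 in all libraries. Both neighbours of SkpB had nearly the same mean in the groups. CG18343, which overlaps it, was at 71.4 ± 3.12 and 71.7 ± 4.02 TPM, and Smyd4-4, of a methyltransferase family, at 31.6 ± 1.08 and 31.4 ± 0.848 TPM (SD, n = 4 per group; adjusted p 0.973 for each, limma). Around SkpF, Or59b, an odorant receptor gene, was listed at 0 in all libraries, and CG43795 was at 0.0142 to 0.0720 TPM.

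**Figure D3:**
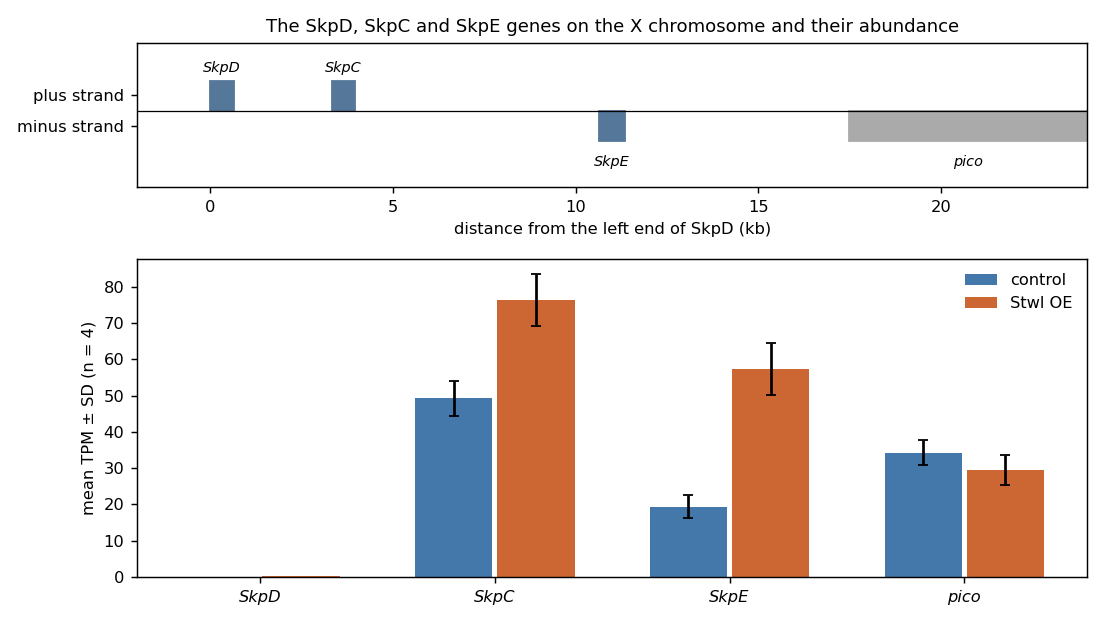
Top, the SkpD, SkpC and SkpE genes and the start of pico on the X chromosome, by distance in kb from the left end of SkpD and by strand; bottom, their mean abundance in TPM in control and Stwl overexpression libraries (bars from 0, ± SD with n = 4, no SD for SkpD). SkpC and SkpE are higher with overexpression, SkpD is close to 0 in both groups, and pico is at 34.3 and 29.5 TPM.

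The partners of Skp proteins in the ligase core did not pass the test. The scaffold gene Cul1 was at 95.6 ± 3.77 and 91.4 ± 7.83 TPM (SD, n = 4 per group; limma adjusted p 0.655, log2 fold change -0.07). The RING gene Roc1a, which lies 7516 bases from SkpA on the same strand, was at 453 ± 20.9 and 423 ± 21.7 TPM (SD, n = 4 per group; limma adjusted p 0.341, log2 fold change -0.10). In the authors' deposited table, Cul1 and Roc1a have log2 fold changes of -0.10 and -0.13 with adjusted p-values of 0.0371 and 0.0490. The RING paralogue gene Roc2 was at 103 ± 10.4 and 110 ± 9.48 TPM (SD, n = 4 per group, adjusted p 0.597, limma), and Roc1b had a mean below 1 TPM. In units of TPM, SkpA stood at 1.22 ± 0.0427 times Roc1a in controls and 1.19 ± 0.0631 times with overexpression, and at 5.77 ± 0.327 and 5.52 ± 0.155 times Cul1 (SD, n = 4 per group). For both ratios the groups overlapped.

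Of 13 F-box protein genes, which give the ligase its substrates, 2 (15.4%) rose and none fell in limma. Among all tested genes 6.2% were higher and 2.18% lower, and 13 genes are few to set beside these shares. FipoQ, a gene tied to polyglutamine toxicity in flies, was at 3.96, 4.69, 3.13 and 3.32 TPM in controls 1 to 4 and at 6.16, 7.62, 6.76 and 7.23 TPM in overexpressing libraries 1 to 4. Every overexpression library lay above every control (log2 fold change 0.74 ± 0.127, SE, adjusted p 0.00743, limma). The gene ntc (nutcracker), needed for caspase activation in maturing sperm, was at 9.9997, 11.4, 12.8 and 11.3 TPM in controls 1 to 4 and at 13.7, 15.4, 17.8 and 19.1 TPM in overexpressing libraries 1 to 4. These groups did not overlap either (log2 fold change 0.49 ± 0.115, SE, adjusted p 0.0294, limma). The limma call of ntc ended with no minimum abundance (limma adjusted p 0.0540). It also ended without control replicate 1, 2 or 4 or overexpressing library 2, 3 or 4. There the limma adjusted p lay between 0.0630 and 0.0902. Across all limma settings the adjusted p of ntc lay between 0.000545 and 0.0902. In the authors' deposited table ntc has a log2 fold change of 0.49 ± 0.098 (SE) and an adjusted p of 1e-05, with no mark.

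The best known F-box genes did not pass. The gene slmb, whose protein recognises phosphorylated substrates such as Armadillo, was at 63.1 ± 3.02 and 63.8 ± 7.94 TPM (SD, n = 4 per group, adjusted p 0.977, limma). The gene ago, whose protein targets Cyclin E and Myc, was at 37.6 ± 2.40 and 36.2 ± 1.94 TPM (SD, n = 4 per group, adjusted p 0.739, limma). Both were named after their values were seen. In all, the median log2 fold change of the 13 F-box genes was -0.02, beside 0.01 over all tested genes.

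Nedd8, a ubiquitin-like protein, switches cullins on when it is attached, and the COP9 signalosome (CSN) takes it off. Of 16 genes of this cycle none was called in limma in either direction, and 4 had a log2 fold change above 0, with a median of -0.06. Among all 8898 tested genes 8.38% were called in either direction, and 4801 had a log2 fold change above 0, with a median of 0.01. Nedd8 itself was at 252 ± 8.90 and 257 ± 7.01 TPM, and CSN8 at 136 ± 11.4 and 135 ± 2.23 TPM (SD, n = 4 per group; adjusted p 0.805 and 0.962, limma). Of 14 tested SCF substrate genes none was called either. The most abundant of them were arm, the beta-catenin gene, at 387 ± 7.27 and 368 ± 40.4 TPM, and cact, an inhibitor of Dorsal, at 93.3 ± 2.82 and 103 ± 13.5 TPM (SD, n = 4 per group; adjusted p 0.639 and 0.480, limma). The log2 fold change of cact, 0.13, was 0.22 without overexpressing library 1 (limma adjusted p 0.0304) and 0.24 with library weights (limma adjusted p 0.00298). In the authors' deposited table arm has an adjusted p of 0.0451. There, 6 of the 15 listed substrate genes and 4 of the 16 genes of the Nedd8 cycle have one under 0.05. Among all genes with such a p there, 18.9% lie under 0.05.

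Ligases built on other cullins, which do not use Skp proteins, were set beside the SCF. None of their 10 genes was called in limma, where 8.38% of all tested genes were called in either direction. EloC, whose protein has the same fold as Skp1 and serves as the adaptor of Cul2 and Cul5, was at 248 ± 11.8 and 265 ± 22.5 TPM, and pic, the DDB1 adaptor of Cul4, at 123 ± 4.98 and 112 ± 17.1 TPM (SD, n = 4 per group; adjusted p 0.529 and 0.492, limma). With library weights EloC was called higher (limma adjusted p 0.0231), and in the authors' deposited table pic has an adjusted p of 0.0406. None of 6 genes of ubiquitin activation and conjugation and of the Ariadne ligase family was called. Uba1, the ubiquitin-activating enzyme gene, was at 407 ± 12.1 and 379 ± 43.8 TPM, and eff, a conjugating enzyme gene, at 375 ± 19.9 and 389 ± 8.05 TPM (SD, n = 4 per group; adjusted p 0.490 and 0.589, limma). In the authors' deposited table Uba1 has an adjusted p of 0.0261, and 2 of the 6 genes of its list are under 0.05.

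Over these 6 lists, 2 of 62 tested genes (3.23%) were called in limma, both as higher, and the share of all tested genes called in either direction was 8.38%. At the authors' deposited adjusted p, 17 of the 64 listed genes were under 0.05, 5 of them higher and 12 lower. Of the 10631 genes with such a p in that table, 2006 (18.9%) were under it, 1113 of them higher and 893 lower. The same table marks 2 of the 64 as Up, FipoQ and the substrate gene trh, and none as Down. Calls in the lists depended on the libraries used: without overexpressing library 1, 5 genes were higher and 1 lower, and with library weights 13 were higher and 3 lower.

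**Figure D4:**
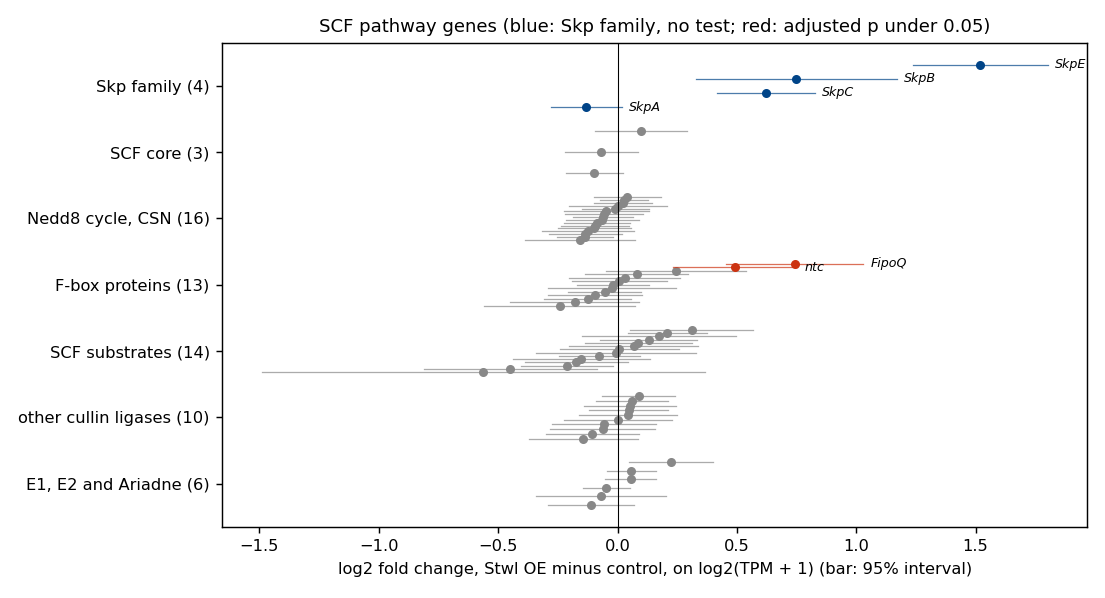
Log2 fold change on the log2(TPM + 1) scale, Stwl overexpression minus control (points) with its 95% interval (bars), for the 4 fitted Skp genes and 62 tested genes of 6 lists around the SCF pathway, with the number of genes in brackets. SkpE lies at 1.52, SkpB at 0.75 and SkpC at 0.62, and among the other genes FipoQ and ntc passed the test.

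Further columns of the authors' deposited table describe the members through other data. It marks a Stwl peak within 1 kb of the gene body for SkpA, SkpB, SkpC and SkpD and none for SkpE, and 73.7% of its genes carry the mark. It lists SkpC and SkpE as upregulated in both of the other studies it names, whose conditions are not given there, and SkpA, SkpB and SkpD in neither. Of all its genes 9.19% are listed for both studies, and of the 64 pathway genes 3 are, Ppa, ci and tim, which like trh were named after their values were seen. The listing is common among the marker genes of other cells given below. It holds for 9 of 10 muscle, 6 of 8 hemocyte, 6 of 9 somatic ovary and 1 of 9 germline genes.

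The genes whose pattern over all 8 samples was most like that of each member are given as a description, by Pearson's r of log2(TPM + 1). For SkpA the closest genes were Dip-C, a dipeptidase gene, Bap60, a subunit gene of the Brahma chromatin remodeller, and Rpt4, a subunit gene of the proteasome, with r of 0.995, 0.993 and 0.985. For SkpC they were CG3552, Sr-CIV, of the hemocyte scavenger receptor family, and the mitochondrial phosphate carrier gene Mpcp2, with r of 0.997, 0.985 and 0.978. Sr-CIV was close to the minimum for the fit, with means of 0.726 TPM (control) and 1.62 TPM (overexpression). For SkpE they were CG6847, CG8563 and CG43843, with r of 0.989, 0.985 and 0.985. For SkpB they were the peroxiredoxin gene Prx2540-1, CG31809 and the oxidase gene Duox, with r of 0.961, 0.943 and 0.938. All of these share the libraries and, apart from the group difference, rest on 4 samples a group. By Spearman's rho 3 of the 12 were still within the closest 3. Ties affect this count: Sr-CIV, left outside it, had the same rho with SkpC as CG3552, 0.976.

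Marker genes of other cells differed between the groups as well. For the counts below, 6.2% of all tested genes were higher in limma and 2.18% lower. For the counts by direction, 4801 of all 8898 tested genes had a log2 fold change above 0, with a median of 0.01. All 10 muscle genes, from the sheath around the ovary, were higher in limma, with a median log2 fold change of 0.70 and a summed level of 2385 to 3237 TPM in controls and 3984 to 4887 TPM with overexpression. Of 8 hemocyte genes 6 were higher, with a summed level of 81.0 to 128 TPM and 158 to 234 TPM. No gene of either list was at 0 in all libraries. The part of such cells in the values of SkpB, SkpC and SkpE was not tested, and in whole ovaries more cells of a type cannot be told apart from more RNA per cell. Among 28 genes of the male germline, 19 had a mean below 1 TPM and 3 were listed at 0 in all libraries, among them the sperm tail gene dj. Their summed level was 116 to 131 TPM in controls and 123 to 160 TPM with overexpression, and 1 of 9 tested was higher, Phf7 (limma adjusted p 0.00427, log2 fold change 0.48). Phf7 alone put 47.8 ± 1.76 TPM (control) and 67.2 ± 6.05 TPM (overexpression) into this sum (SD, n = 4 per group). Of the 9 tested, 5 had a log2 fold change above 0. Germline genes were present in every library, with vas at 402 ± 11.9 and 341 ± 54.1 TPM (SD, n = 4 per group). Of 9 such genes 1 fell in limma, bgcn (log2 fold change -0.83), all 9 had a log2 fold change below 0 with a median of -0.19, and their summed level was 1093 to 1193 TPM in controls and 810 to 1164 TPM with overexpression. Of 7 tested genes of somatic ovary cells none passed in limma, 6 had a log2 fold change above 0 with a median of 0.25, and the summed level of all 9 listed was 427 to 476 TPM and 445 to 536 TPM. Of these lists, 5 of the 9 germline and 3 of the 9 somatic genes have an adjusted p under 0.05 in the authors' deposited table. Of all genes with such a p there, 18.9% are under it. The part of these shifts in the members' values was not tested either.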

How the data were processed

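The submitters' processing notes name the build BDGP 6, DESeq2 1.37.4 and Salmon 1.10.1 and do not say what each was used for. The authors deposited TPM values for 14094 genes in 8 libraries. The headers call them log2 TPM, but each column sums to 1000000 and they were used as linear TPM, which keeps no depth. The authors' deposited table of their own comparison holds log2 fold changes with standard errors, a mean signal, a test score and p-values for 11397 genes, per the file headers. Its Up and Down marks coincide with an adjusted p under 0.01 and an absolute log2 fold change of at least 0.6.

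A minimum mean of 1 TPM left 8898 genes, and log2(TPM + 1) was fitted with the group as only term in limma 3.58.1 under R 4.3.3, with a variance trend and Benjamini-Hochberg adjustment (threshold 0.05, 2-sided). The fit was tested on simulated data. Count models were not run, because TPM values are not counts. The members and the lists were chosen with earlier results of these data known. Genes named were the 6 members, stwl, the 4 core genes, up to 6 called genes of each of 6 lists or else its 2 most abundant, the nearest gene on each side of each member, and the 3 genes most like each member. Any other gene named (such as zld, slmb, ago, trh, Ppa, ci and tim, and the markers dj, Phf7, vas and bgcn) was chosen after its values were seen. List symbols were matched to the files, ppa as Ppa and CSN2 as alien. Alternatives were another pseudocount (0.1), other filters (none, a mean of 5 TPM), median-of-ratios scaling, no variance trend, library weights, a replicate block, each library left out and the authors' test. Protein and promoter sequences were not used here. Figures were drawn with matplotlib 3.10.9.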

Additional observations from a re-analysis of the deposited data

Results flagged for a closer look

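The summed abundance of the Skp family in overexpressing library 1, 583 TPM, stood apart from the other 3 overexpression libraries, which lay between 656 and 671 TPM. It was picked out because its gap to the nearest library, as a share of the range of its group, exceeded the 95% critical value of Dixon's test for 4 samples. Of 42 such checks this was the only 1 to do so, and a check at that level flags some groups by chance. SkpA, the most abundant member, was at 447 TPM in this library and at 502 to 544 TPM in the others.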

How the results depend on the processing

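The log2 fold changes of the fitted Skp genes kept their direction in every alternative in which they were fitted. SkpB was not fitted at a minimum mean of 5 TPM. The ranges were -0.17 to -0.07 for SkpA, 0.58 to 0.91 for SkpB, 0.55 to 0.74 for SkpC and 1.45 to 1.59 for SkpE. The order of the genes in controls did not change. With no filter on low values SkpD had a log2 fold change of 0.19 (standard error 0.089). Over all genes, 552 were higher and 194 lower, against 2293 and 804 with library weights, 1113 and 893 in the authors' deposited table, 626 lower with median-of-ratios scaling, and 336 to 988 higher and 99 to 248 lower when a library was left out. In the 6 pathway lists, 2 were higher and 0 lower, against 13 and 3 with library weights, 5 and 12 in the authors' deposited table, 4 lower with median-of-ratios scaling, and 1 to 5 higher and 0 to 1 lower with a library left out. Of the 12 genes most like a member, 3 were kept by Spearman's rho, not counting Sr-CIV, which was tied with a gene that was kept. Nedd8 turned to -0.0037 with median-of-ratios scaling and to -0.0025 in the authors' deposited table, and CSN8, which ranged from -0.062 to 0.031 when a library was left out, to 0.012, 0.031 and 0.00088 without control 3, control 4 and overexpressing library 2. The cause was not tested for any of these. With a replicate block the log2 fold changes are the same by construction. Same-numbered libraries showed correlations of -0.13 to 0.14 in their deviations, so the numbers were not taken as pairs. TPM gives no depth, so the counting error of the low genes SkpB and SkpD cannot be stated.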
